A study of Mus musculus with 12 samples.

Results

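The transcriptional response to interferon beta (IFN-β) was measured in peritoneal exudate cells of mice without Ifnar2, by comparing 3 arrays of Ifnar2-/- mice injected with IFN-β with 3 arrays of Ifnar2-/- mice injected with phosphate-buffered saline (PBS). A gene was included when a probe for it was flagged well above background on each of the 3 arrays of either group. This held for 16355 of the 27670 genes named on the array. The choice used detection alone and not the size of any difference.

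Both Ifnar2-/- groups were female mice 8 weeks of age of the strain given as 129S2/SvPas*BALB/c, and the cells were taken 3 hours after the injection into the peritoneal cavity. The IFN-β was stated as 10000 IU/ml with no volume. Wild-type mice of the same stated strain, sex and age had 3 arrays after PBS and 3 after IFN-β. These arrays entered the estimate of spread, the choice of the probe for each gene and the comparison of responses. Each array came from a different mouse in independent experiments, per the series' design text. The sources used here do not say how the Ifnar2 allele was made. A preparation without active IFN-β was not part of the design, so the effects of IFN-β and of any other constituent of the injected preparation cannot be told apart.

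Type I interferons bind a receptor made of Ifnar1 and Ifnar2. The usual signal runs through the kinases Tyk2 and Jak1 to a complex of STAT proteins and IRF9, which binds interferon-stimulated response elements (ISRE) in the promoters of antiviral genes. NF-kB is a separate set of transcription factors that drives many chemokine and cytokine genes in macrophages, the main resident phagocytes of the peritoneal cavity. The series' title names Ifnar1 as the receptor of interest, and the comparison asks which responses to IFN-β take place when Ifnar2 is missing.

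Levels below are log2 values of the processed signal relative to the 75th percentile of their array, and they are compared only within a probe. Between 59.4% and 71.6% of the 43379 spots on the Ifnar2-/- arrays were well above background. Replicate 1 of both Ifnar2-/- groups lay on slide 2 (69.6% and 71.6%), and replicates 2 and 3 of both groups lay on slide 3 (59.4% to 62.5%), so treatment was balanced over the slides. The lowest level well above background was -6.66 to -6.07 on slide 2 and -5.46 to -5.02 on slide 3. The 3 PBS arrays correlated at 0.986 to 0.992 across genes, and the 3 IFN-β arrays at 0.973 to 0.988. IFN-β replicate 3 stood apart from the other arrays. On the first principal component of the 6 arrays, which held 50.7% of the variance, it scored 68.9, against 11.6 and -4.08 for the other IFN-β arrays and -34.9 to -20.8 for the PBS arrays. Markers of large peritoneal macrophages were present, with 20 of 20 well above background on all 6 arrays, as were 21 of 21 B cell markers. The other marker lists ran from 10 of 17 (mesothelial and stromal) to 15 of 15 (monocyte), so detection does not tell which cells prevailed. The Ifnar2 probe used here (A_52_P190405) read 2.95, 2.74 and 2.69 after PBS and 2.92, 3.03 and 3.20 after IFN-β. A second Ifnar2 probe (A_51_P338924) read 2.49, 2.69 and 2.60 after PBS and 2.63, 3.01 and 3.11 after IFN-β. Over the 6 wild-type arrays the first read 4.42 to 4.88 and the second 1.08 to 1.78, so the first was lower and the second higher on every Ifnar2-/- array than on any wild-type array. No source used here places these probes relative to the deleted part, so they check nothing about the genotype.

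IFN-β changed 268 of the 16355 genes (1.64%) in cells without Ifnar2, of which 205 rose (1.25%) and 63 fell (0.385%), at an adjusted p under 0.05 in limma. The fit did not pair arrays by replicate number. The genes that rose held chemokines, cytokines, the itaconate enzyme Acod1 and myeloid receptors, and they held 1 of the 34 antiviral interferon-stimulated genes that could be tested. The gene lists were drawn up with earlier results of these data known, so the counts in them are descriptions and not independent support. The median change was 1.15 on the log2 scale over the 205 genes that rose and -0.81 over the 63 that fell, against -0.05 over all genes tested. Of the genes that rose, 184 were well above background on all 6 arrays, 12 on 1 or 2 PBS arrays and 9 on no PBS array. These 12 and 9 entered the test through the IFN-β arrays only, where they were higher. The counts of rises, here and in the lists that hold such genes, are therefore not independent of the detection filter. The groups did not overlap for any of the 268 genes, and they did not overlap for 25.3% of all genes tested (12.2% higher and 13.1% lower after IFN-β). At least 2-fold changes were 120 of the rises (0.734% of all genes tested) and 25 of the falls (0.153%). In these bulk samples, fewer cells of a type and less RNA per cell cannot be told apart.

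The number of calls depended on single arrays. Of 81 named genes that were called, 29 stayed past the threshold with any 1 of the 12 arrays left out and under 8 other processing settings. These were quantile normalization, no scaling, a percentile over probes detected on all arrays, normexp, the mean of a gene's probes, a trend in the variance, slide as a block and the replicate block. The 29 included Acod1, Cxcl1, Cxcl10, Ccl7, Ccl12, Ccl22, Il6, Tnf, Bcl3, Ikbke, Tnfaip2, Tnip3, Clec4e, Treml4, Gpr84, Tgm2, Flrt3, Icam1, Mmp14, Sod2, Saa2, Slc2a6, Hk2, Nr1h3, Fbxo32 and Fabp5. Among the 12 fits that left out an array, the call held in 1 for Ccrl2, Krt19, Nr1d2 and Stard13, in 2 for Cmpk2, Socs3 and Sphk1, and in 3 for Engase, Fam214a and Tchh. It held in 4 for Il1rn, Maff and Slc7a11, and in 5 for 1810059H22Rik, 2210416O15Rik, Csf2rb and Itgax. Of the 81, 39 kept the call with no filter on background, 28 within slide 3, 1 within slide 2 and 21 with the 6 Ifnar2-/- arrays alone. The groups did not overlap for any of the 268 genes, so leaving out an array could not reverse a sign. The number called fell to 57 without PBS replicate 2, 89 without PBS replicate 1 and 100 without PBS replicate 3 of Ifnar2-/-. It was 172 without IFN-β replicate 3, of which 135 were shared with the 268. It was 169 without wild-type PBS replicate 1 and 140 without wild-type IFN-β replicate 1. With slide as a block 180 genes were called, and 2 were called within slide 2 and 51 within slide 3. With the replicate number as a block 207 were called over 12 arrays. The 6 Ifnar2-/- arrays alone gave 33 calls, and 2 with the replicate block (Acod1 and Ptgs2). Without scaling between arrays the split was 180 higher and 26 lower. With normexp background correction it was 233 higher and 122 lower.

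**Figure D1:**
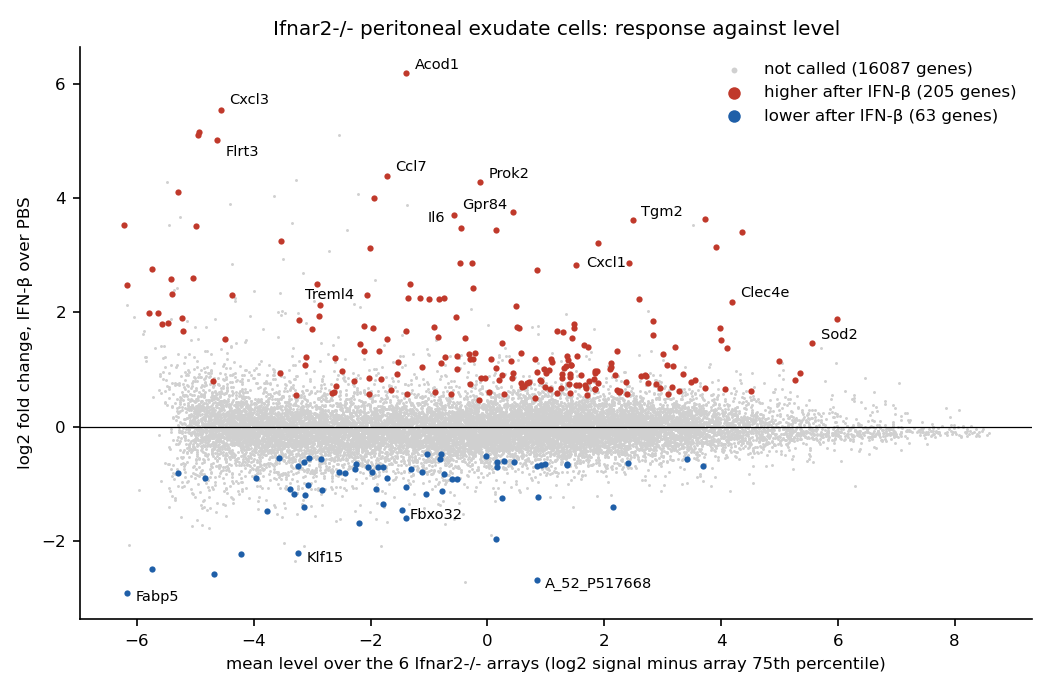
Log2 fold change (IFN-β over PBS, vertical axis) against the mean level over the 6 Ifnar2-/- arrays (horizontal axis, log2 signal minus the array's 75th percentile), 1 point per gene. The 205 genes that rose are red, the 63 that fell are blue and all others are grey. Acod1 lies at 6.18. Genes on no array of a group, such as Fabp5 at the lower left, are drawn at fitted values that measure no size.

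The largest rise was that of Acod1, which encodes the mitochondrial enzyme that makes itaconate from cis-aconitate in activated macrophages. Its level was -4.28, -4.72 and -4.45 on the PBS arrays and 1.35, 1.70 and 2.05 on the IFN-β arrays. The groups lay far apart, and all 3 IFN-β arrays were close to each other, which gave a 72.8-fold rise (log2 fold change 6.18, SE 0.54, limma adjusted p = 0.000441). Ptgs2, the inducible cyclooxygenase of prostaglandin synthesis, was not well above background on any PBS array and read -3.17, -1.71 and -2.22 after IFN-β. It was at least 10.2-fold higher (limma adjusted p = 0.0191), where the bound sets the IFN-β mean against the lowest signal measured above background on the PBS arrays or the probe's own signal, whichever is higher. Ptges, the prostaglandin E synthase that acts after Ptgs2, read -0.75, -0.62 and -0.32 after PBS and 1.21, 0.93 and 2.50 after IFN-β. It rose by 2.11 (SE 0.33, limma adjusted p = 0.0142). Sod2, the mitochondrial superoxide dismutase, had tight groups on all arrays, at 4.78, 4.78 and 4.93 after PBS and 6.33, 6.21 and 6.35 after IFN-β. It rose by 1.47 (SE 0.15, limma adjusted p = 0.000939). Arg1, the arginine-degrading arginase, rose by 1.52 (SE 0.28, limma adjusted p = 0.0285, and 0.0511 with the replicate block). Gch1, which starts tetrahydrobiopterin synthesis and was singled out after its values were seen, rose by 0.81 (SE 0.13, limma adjusted p = 0.0160).

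These were the 6 of 24 tested inflammatory and lipid mediator enzymes that rose. None fell, and the median of the list was -0.03, against -0.05 over all genes. Ptgs2 met the detection rule only through the IFN-β arrays, so the count of risers is not independent of that filter. The count was 2 without PBS replicate 1 or PBS replicate 2 of Ifnar2-/-. Ptgs2 missed the threshold without any single Ifnar2-/- PBS array and without IFN-β replicate 3 (limma adjusted p = 0.0580 in the last). With normexp background correction its log2 fold change was 1.82, and it was called. Nos2, the inducible nitric oxide synthase, was not well above background on any Ifnar2-/- array and was not tested.

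The chemokines, secreted proteins that recruit leukocytes, held 11 genes that rose among 27 tested and none that fell. Their median change was 1.38, and 1.25% of all genes tested rose, the share to set beside the risers of each list. Cxcl3, Ccl22, Cxcl10, Ccl12 and Cxcl9 met the detection rule only through the IFN-β arrays, where they were higher. The count is therefore not independent of that filter. Cxcl3, a ligand of the neutrophil receptor Cxcr2, was not well above background on any PBS array and read -2.63, -1.94 and -0.81 after IFN-β. It was at least 15.1-fold higher (limma adjusted p = 0.0152). The other Cxcr2 ligands of this group, Cxcl1 and Cxcl2, were detected on all arrays. Cxcl1 read 0.04, 0.16 and 0.10 after PBS and 2.86, 3.46 and 2.45 after IFN-β, a rise of 2.82 (SE 0.23, limma adjusted p = 0.000284). Cxcl2, named here after its values were seen, read -0.65, -0.47 and -0.47 after PBS and 2.41, 2.54 and 1.69 after IFN-β, a rise of 2.75. In both genes the PBS arrays were nearly equal, and IFN-β replicate 3 was the lowest of its group.

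The monocyte attractant Ccl7 read -3.76, -4.14 and -3.85 after PBS and -1.07, 0.37 and 2.13 after IFN-β. The IFN-β arrays were spread over more than 3 log2 units but all lay above the PBS arrays, and the rise was 4.39 (SE 0.62, limma adjusted p = 0.00926). Ccl22, a ligand of the chemokine receptor Ccr4 on T cells, was not well above background on any PBS array. It was at least 2.37-fold higher (limma adjusted p = 0.0112). Cxcl10, a ligand of Cxcr3 on T and NK cells and a known interferon target, cleared background (was flagged well above it) on 1 of 3 PBS arrays. It read -5.93, -7.36 and -6.96 after PBS and -3.41, -3.01 and -3.31 after IFN-β, a rise of 3.50 that was 1.16 with normexp background correction. Ccl12, another monocyte attractant, read -5.30, -6.01 and -5.26 after PBS, with 1 of 3 arrays well above background, and -2.99, -2.69 and -3.95 after IFN-β. It rose by 2.31 (SE 0.33, limma adjusted p = 0.00987), and by 0.94 with normexp. Cxcl9, also a Cxcr3 ligand, rose by 1.99 (SE 0.32, limma adjusted p = 0.0149) with 1 of 3 PBS arrays well above background, and its adjusted p was 0.147 with normexp. The remaining 3, named after their values were seen, were the macrophage inflammatory proteins Ccl3 (2.42) and Ccl4 (2.22) and the monocyte attractant Ccl2 (1.80).

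The chemokine count was 7 without PBS replicate 2 and 10 without IFN-β replicate 3 of Ifnar2-/-, 8 within slide 3 and 1 within slide 2. It was 4 with the 6 Ifnar2-/- arrays alone and 0 with the replicate block on them. The list median was 0.71 with normexp. Cxcl3 missed the threshold without any single Ifnar2-/- PBS array and without IFN-β replicate 3, where its limma adjusted p was 0.0503. Neutrophil markers were also higher on the IFN-β arrays: the median over the 24 markers, relative to the PBS mean, was 0.16, -0.34 and 0.23 on the PBS arrays and 0.61, 2.17 and 3.44 on the IFN-β arrays. Their summed signal, in multiples of the array's 75th percentile, was 145 to 190 on the PBS arrays and 167 to 374 on the IFN-β arrays, and Elane, a defining marker of immature neutrophils, was not well above background on any Ifnar2-/- array. None of the 22 tested neutrophil markers passed in the fit of all 12 arrays, and their part in the chemokine result was not tested. Of the chemokines given by array, Cxcl3 and Ccl7 rose over the IFN-β replicates in the same order as these markers. Cxcl1, Cxcl2, Cxcl10 and Ccl12 did not.

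Promoter sequences are shown for 5 risers of the chemokine and cytokine groups and for the antiviral genes Isg15 and Rsad2, which are known ISRE targets. They were chosen after the values and matches were seen, as examples of each motif, so the contrast among them follows from the choice. Each runs 5′ to 3′ on the gene's strand from 250 bases before to 50 bases after the RefSeq start (GRCm38.p6), 300 bases in all. Capitals mark matches on either strand to an NF-kB motif (GGG, any 2 bases, TT, any base and CC) and, in the last 3, to the ISRE core (GAAA, any 2 bases and GAAA).
Cxcl1: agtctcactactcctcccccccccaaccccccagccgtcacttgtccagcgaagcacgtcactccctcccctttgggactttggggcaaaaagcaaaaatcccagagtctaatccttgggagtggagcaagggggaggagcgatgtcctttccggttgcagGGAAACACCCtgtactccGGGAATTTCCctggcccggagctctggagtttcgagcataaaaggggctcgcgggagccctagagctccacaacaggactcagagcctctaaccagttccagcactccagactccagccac
Cxcl2: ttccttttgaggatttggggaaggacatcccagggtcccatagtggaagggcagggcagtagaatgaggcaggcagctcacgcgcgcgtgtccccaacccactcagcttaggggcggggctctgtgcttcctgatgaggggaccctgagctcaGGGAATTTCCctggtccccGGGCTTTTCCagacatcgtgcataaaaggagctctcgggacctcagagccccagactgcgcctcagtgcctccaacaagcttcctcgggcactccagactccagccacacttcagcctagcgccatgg
Cxcl3: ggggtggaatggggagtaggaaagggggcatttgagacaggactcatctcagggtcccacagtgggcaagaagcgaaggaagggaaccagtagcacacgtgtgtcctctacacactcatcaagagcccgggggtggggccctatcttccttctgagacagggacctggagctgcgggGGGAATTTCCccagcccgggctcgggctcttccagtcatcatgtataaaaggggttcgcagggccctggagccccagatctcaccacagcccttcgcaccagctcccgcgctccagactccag
Il6: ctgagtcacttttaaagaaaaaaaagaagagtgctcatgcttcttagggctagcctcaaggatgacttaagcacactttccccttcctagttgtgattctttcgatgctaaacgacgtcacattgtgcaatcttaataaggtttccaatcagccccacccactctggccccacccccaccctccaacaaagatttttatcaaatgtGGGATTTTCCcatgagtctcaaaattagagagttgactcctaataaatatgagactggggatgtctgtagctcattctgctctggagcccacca
Cxcl10: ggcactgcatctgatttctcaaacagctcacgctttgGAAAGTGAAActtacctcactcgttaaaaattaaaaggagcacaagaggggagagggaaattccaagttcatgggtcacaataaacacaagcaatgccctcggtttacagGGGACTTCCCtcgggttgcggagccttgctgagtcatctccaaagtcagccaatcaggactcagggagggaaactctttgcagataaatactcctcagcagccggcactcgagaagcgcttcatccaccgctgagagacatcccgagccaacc
Isg15: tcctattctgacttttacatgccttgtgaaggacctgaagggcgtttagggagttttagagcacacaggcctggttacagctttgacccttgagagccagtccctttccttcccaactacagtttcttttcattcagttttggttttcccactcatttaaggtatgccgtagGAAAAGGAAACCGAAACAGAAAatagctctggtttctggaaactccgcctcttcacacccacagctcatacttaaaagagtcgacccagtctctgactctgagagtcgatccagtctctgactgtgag
Rsad2: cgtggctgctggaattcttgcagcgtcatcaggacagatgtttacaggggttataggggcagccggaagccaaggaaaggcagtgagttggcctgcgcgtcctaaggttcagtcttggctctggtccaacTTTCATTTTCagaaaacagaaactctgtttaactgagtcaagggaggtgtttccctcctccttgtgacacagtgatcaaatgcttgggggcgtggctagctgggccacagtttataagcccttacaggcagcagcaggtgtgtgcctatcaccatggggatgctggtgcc

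The windows lie at chr5:90890995-90891294 (Cxcl1, plus strand), chr5:90903649-90903948 (Cxcl2, plus), chr5:90785851-90786150 (Cxcl3, plus), chr5:30012864-30013163 (Il6, plus), chr5:92348840-92349139 (Cxcl10, minus), chr4:156200769-156201068 (Isg15, minus) and chr12:26456403-26456702 (Rsad2, minus). Cxcl1 and Cxcl2 each held 2 NF-kB matches, with first bases 89 and 71 bases before the start in Cxcl1 and 97 and 78 in Cxcl2. Cxcl3 held 1 match 73 bases before its start, and Il6 held 1 match 44 bases before its start. Cxcl10 held an NF-kB match 103 bases before its start and an ISRE match 213 bases before it. Isg15 held 3 ISRE matches, at 78, 72 and 66 bases, that overlap each other, and Rsad2 held 1 at 120 bases, on the opposite strand. No marked NF-kB or ISRE match overlapped a match to another motif searched, among NF-kB, ISRE, AP-1 (TGANTCA) and the STAT element GAS (TTCNNNGAA).

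Over all 32851 promoter windows of RefSeq, 4.79% held the NF-kB motif, 3.44% the ISRE, 7.81% the AP-1 motif and 8.3% the GAS motif. Over the 13347 windows of the genes tested the shares were 5.33%, 2.97%, 5.51% and 6.95%. Of the 205 genes that rose, 148 had a window, and 12.17% of their 189 windows held the NF-kB motif, 2.12% the ISRE, 11.11% the AP-1 motif and 7.41% the GAS motif. Of the 63 genes that fell, 40 had a window, and none of their 55 windows held the NF-kB or the ISRE motif, 1.82% held the AP-1 motif and 9.09% the GAS motif. For comparison, 44.68% of the 47 windows of the antiviral list held the ISRE, 4.26% the NF-kB motif, 19.15% the AP-1 motif and 17.02% the GAS motif. Of the 11 chemokines that rose, 8 had a window, and 5 of these held the NF-kB motif. The 19 risers with an NF-kB match included, beside those shown, the NF-kB subunit gene Nfkb2, the feedback genes Bcl3, Tnfaip3 and Tnip3, the receptor gene Tlr2 and Il1rn. A match is a description of letters in this window and not a measured binding site.

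The inflammatory cytokines held 8 genes that rose among 20 tested and none that fell, with a median of 0.32. Tnfsf9 and Il10, given below, met the detection rule only through the IFN-β arrays, so the count is not independent of that filter. Il6, an acute-phase and B cell cytokine, read -2.48, -2.20 and -1.89 after PBS and 0.94, 1.81 and 1.10 after IFN-β. The groups did not overlap, and Il6 rose by 3.48 (SE 0.27, limma adjusted p = 0.000284). Il1b, the precursor of the pyrogen interleukin 1 beta, read -1.34, -1.40 and -1.57 after PBS and 1.36, 2.46 and 3.12 after IFN-β. It rose by 3.75 (SE 0.64, limma adjusted p = 0.0191) but missed the threshold without any single Ifnar2-/- PBS array and without IFN-β replicate 3 (limma adjusted p = 0.0623 in the last). Il1rn, the antagonist of the interleukin 1 receptor, read -1.21, -1.64 and -1.87 after PBS and 0.58, 1.19 and 3.84 after IFN-β, with replicate 3 far above the others. It rose by 3.44 (SE 0.66, limma adjusted p = 0.0326, and 0.0585 with the replicate block).

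Tnf, the macrophage cytokine tumour necrosis factor, read -2.43, -2.15 and -2.85 after PBS and 0.02, -0.63 and -0.08 after IFN-β. It rose by 2.25 (SE 0.30, limma adjusted p = 0.00743), and IFN-β replicate 3 was not the highest. Tnfsf9, the ligand of the costimulatory receptor 4-1BB, rose by 1.99 (SE 0.30, limma adjusted p = 0.0112) with 1 of 3 PBS arrays well above background, and its adjusted p was 0.139 with normexp. The other risers, named after their values were seen, were Il1a (1.76), oncostatin M (Osm, 1.52) and the anti-inflammatory Il10, which was on no PBS array and was at least 2.07-fold higher. The cytokine count was 4, 3 and 5 without PBS replicate 1, 2 and 3 of Ifnar2-/-, 7 without IFN-β replicate 3, and 2 within slide 3. The neutrophil marker medians given above rose over the IFN-β replicates in the same order as Il1b and Il1rn, but not as Il6 and Tnf. Among risers outside the cytokines, Acod1, Clec4e, Bcl3, Treml4 and Prok2 rose in that order too, and Gpr84, Sod2 and Ikbke did not. The part of the neutrophil markers in any of these values was not tested. Among 27 cytokine receptors tested, the common beta chain Csf2rb was the single riser (0.81, limma adjusted p = 0.0327, and 0.0585 with the replicate block), and the median was 0.10.

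**Figure D2:**
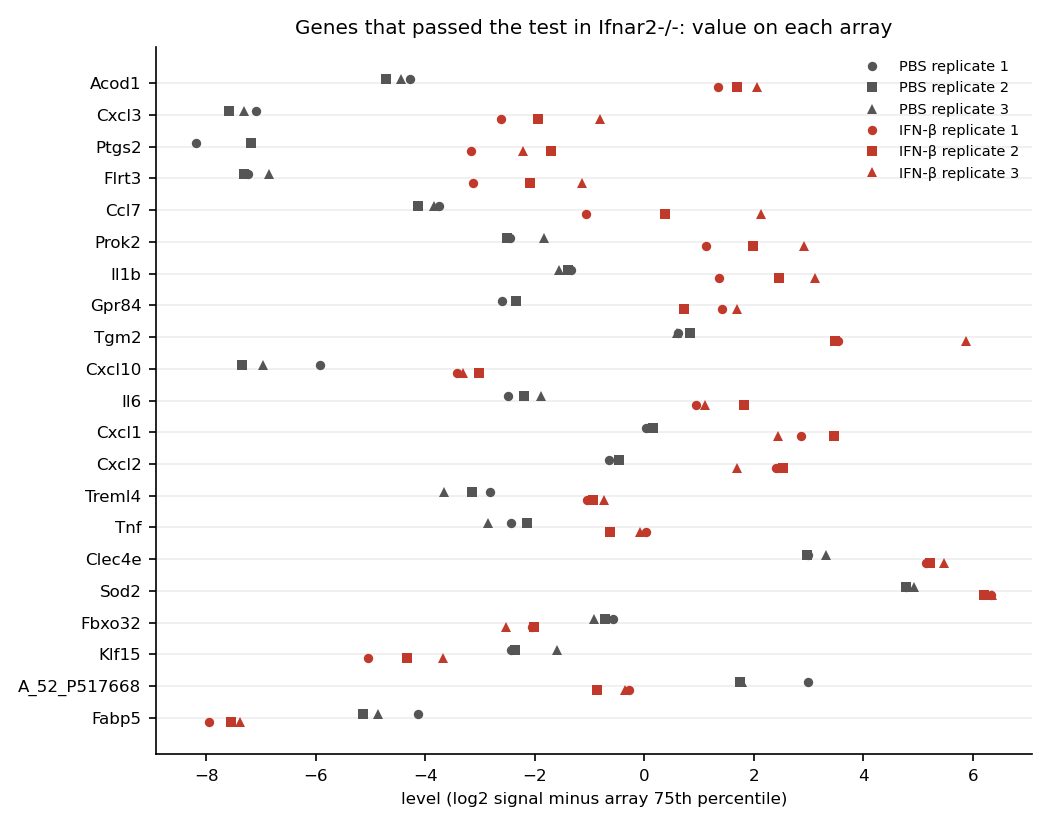
Level of 21 genes on each of the 6 Ifnar2-/- arrays (log2 signal minus the array's 75th percentile), with PBS in grey and IFN-β in red and the marker shape giving the replicate. All 21 passed the test, and in each the 3 IFN-β arrays lie on one side of the 3 PBS arrays. Levels are to be compared within a row.

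NF-kB subunits, inhibitors and feedback genes, many of which are themselves NF-kB targets, held 8 risers among 28 tested and no faller. The median was 0.49, and 25 of the 28 changes were above 0. Through Tnip3, which met the detection rule on the IFN-β arrays only, the count is not independent of that filter. Tnip3, an inhibitor that binds the protein A20, read -5.46, -6.59 and -6.97 after PBS, with 1 of 3 arrays well above background, and -4.16, -3.39 and -3.67 after IFN-β. It rose by 2.60 (SE 0.34, limma adjusted p = 0.00614), and by 0.79 with normexp. Bcl3, an atypical I-kappa-B protein of the nucleus, read 2.91, 3.14 and 3.30 after PBS and 4.52, 4.91 and 5.11 after IFN-β. Its groups were tight, and it rose by 1.73 (SE 0.20, limma adjusted p = 0.00260). Ikbke, the kinase IKK-epsilon, read -0.30, -0.39 and -0.28 after PBS and 1.74, 1.20 and 1.25 after IFN-β, a rise of 1.72 (SE 0.16, limma adjusted p = 0.000633). Tnfaip2 rose by 1.84 (SE 0.20, limma adjusted p = 0.00167). Tnfaip3, which encodes A20 itself, read 0.75, 0.72 and 0.75 after PBS and 2.04, 2.30 and 1.57 after IFN-β, a rise of 1.23 (SE 0.18, limma adjusted p = 0.0103). The remaining risers, named after their values were seen, were the subunits Relb (1.12) and Nfkb2 (0.90) and the inhibitor Nfkbie (0.90).

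The NF-kB count was 4 without PBS replicate 2 of Ifnar2-/-. It was 5 without PBS replicate 1, PBS replicate 3 or IFN-β replicate 2 of Ifnar2-/-, and also 5 without wild-type PBS replicate 1 or any single wild-type IFN-β array. It was 4 within slide 3. Leaving out IFN-β replicate 3 gave 7.

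Myeloid pattern and lectin receptors held 7 risers among 33 tested and no faller, with a median of 0.32. Clec4e, the lectin Mincle that senses mycobacterial glycolipids and dead cells, read 3.00, 2.97 and 3.32 after PBS and 5.15, 5.21 and 5.48 after IFN-β. Both groups were tight, and the rise was 2.19 (SE 0.18, limma adjusted p = 0.000284). Clec4n, the lectin dectin-2, rose by 2.86 (SE 0.53, limma adjusted p = 0.0283, and 0.0542 with the replicate block). Olr1, the receptor for oxidised low-density lipoprotein, rose by 2.86 (SE 0.51, limma adjusted p = 0.0235). In both, IFN-β replicate 3 was far above the other IFN-β arrays, at 2.58 against 0.27 and 0.64 for Clec4n and at 2.41 against 0.01 and 0.48 for Olr1. Cd14, the co-receptor for lipopolysaccharide, read 5.08, 4.95 and 5.10 after PBS and 6.36, 6.55 and 7.87 after IFN-β, a rise of 1.89 (SE 0.33, limma adjusted p = 0.0207). Tlr2, the receptor for bacterial lipoproteins, rose by 1.39 (SE 0.24, limma adjusted p = 0.0198). The signalling genes Irak3 (1.02) and Myd88 (0.75), named after their values were seen, also rose. The count was 2 without any single Ifnar2-/- PBS array and 7 without IFN-β replicate 3.

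Among 14 TREM and CD300 receptors and adaptors, Treml4 was the single riser, and the median was -0.15. Treml4, a myeloid receptor that binds late apoptotic and necrotic cells, read -2.83, -3.15 and -3.66 after PBS and -1.05, -0.94 and -0.73 after IFN-β. It rose by 2.30 (SE 0.25, limma adjusted p = 0.00187). Trem1, a receptor of neutrophils and monocytes, read -4.23, -4.06 and -4.07 after PBS and -2.40, -1.19 and 1.53 after IFN-β. Its difference was 3.43, with IFN-β replicate 3 far above the others, and it did not pass (limma adjusted p = 0.0504).

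Of 21 chemokine and chemoattractant receptors, 2 rose and none fell, with a median of 0.30. They were Ccrl2, an atypical receptor that binds chemerin (1.08, SE 0.21, limma adjusted p = 0.0327), and C5ar1, the receptor for the complement fragment C5a (0.98, SE 0.15, limma adjusted p = 0.0117). The call of Ccrl2 held in 1 of the 12 fits that left out an array, and was lost with slide as a block. The count of the list was 4 (median 0.16) without IFN-β replicate 3, 0 without PBS replicate 2 of Ifnar2-/-, and 0 within slide 2 and within slide 3. Adhesion, coagulation and protease genes held 5 risers among 28 tested and no faller, with a median of 0.24, and 4 of the risers are described. Mmp14, a membrane-bound collagenase, read -2.53, -2.53 and -2.66 after PBS and 0.04, -0.50 and 0.22 after IFN-β, a rise of 2.49 (limma adjusted p = 0.000939). Vcam1, an integrin ligand, cleared background on 1 of 3 PBS arrays and rose by 2.57 (SE 0.39, limma adjusted p = 0.0113, and 0.0994 with normexp). Icam1, the ligand of the leukocyte integrins LFA-1 and Mac-1, read 2.18, 1.97 and 1.97 after PBS and 3.79, 4.04 and 3.09 after IFN-β, a rise of 1.60 (SE 0.21, limma adjusted p = 0.00552). Itgax, the integrin CD11c, rose by 1.46 (SE 0.28, limma adjusted p = 0.0314, and 0.0532 with the replicate block), and by 0.92 as the mean of its probes. The count of this list was 3 without PBS replicate 1, PBS replicate 3 or IFN-β replicate 3, and 2 without PBS replicate 2 of Ifnar2-/-. It also rests in part on Vcam1, which met the detection rule only through the IFN-β arrays.

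Several of the largest rises lay outside these lists. Prok2, a secreted prokineticin made by myeloid cells, read -2.45, -2.52 and -1.83 after PBS and 1.13, 1.99 and 2.92 after IFN-β. The groups did not overlap, and Prok2 rose by 4.28 (SE 0.64, limma adjusted p = 0.0112). It missed the threshold without PBS replicate 2 of Ifnar2-/-. Gpr84, a receptor for medium-chain fatty acids on myeloid cells, read -2.59, -2.34 and -2.35 after PBS and 1.43, 0.72 and 1.69 after IFN-β. It rose by 3.70 (SE 0.27, limma adjusted p = 0.000284). Tgm2, the tissue transglutaminase, read 0.62, 0.83 and 0.60 after PBS and 3.54, 3.48 and 5.87 after IFN-β, a rise of 3.61 (SE 0.52, limma adjusted p = 0.00982). Sphk1, which makes sphingosine 1-phosphate, read -4.43, -3.93 and -3.44 after PBS and -1.81, -0.57 and 2.54 after IFN-β. Its IFN-β arrays were widely spread, and the rise was 3.99 (SE 0.82, limma adjusted p = 0.0413). The call held in 2 of the 12 fits that left out an array.

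Flrt3, a leucine-rich transmembrane protein, was not well above background on any PBS array and read -3.12, -2.10 and -1.14 after IFN-β. It was at least 12.1-fold higher (limma adjusted p = 0.000284). Slc7a11, the cystine and glutamate exchanger, was also on no PBS array and read -4.27, -3.40 and 0.47 after IFN-β. It was at least 9.91-fold higher (limma adjusted p = 0.0375, 0.0578 with the replicate block and 0.118 with normexp). Dcstamp, a protein needed for the fusion of macrophages and osteoclasts, was at least 5.53-fold higher (limma adjusted p = 0.0149, and 0.0770 with normexp). A transcript named in the files only as NAP066348-1 (probe A_52_P474528) read 1.75, 1.83 and 2.14 after PBS and 4.78, 5.02 and 6.81 after IFN-β, a rise of 3.63 (limma adjusted p = 0.00260).

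Stress and metabolic lists were read against the 1.25% of all genes tested that rose. The metallothionein and oxidative stress list had 4 risers among 22 tested, no faller and a median of 0.36. Beside Slc7a11 these were the metallothionein Mt2 (3.14, SE 0.53, limma adjusted p = 0.0180, and 0.0591 without IFN-β replicate 3), the zinc and iron importer Slc39a14 (1.54, SE 0.24, limma adjusted p = 0.0113) and the oxidative stress regulator Nfe2l2 (0.62, SE 0.11, limma adjusted p = 0.0189). That count was 1, 0 and 2 without PBS replicate 1, 2 and 3 of Ifnar2-/-. Slc7a11 entered it only through detection on the IFN-β arrays. Of 27 glycolysis and hypoxia genes, the glucose transporter Slc2a6 (1.08, SE 0.14, limma adjusted p = 0.00570) and hexokinase Hk2 (0.93, SE 0.12, limma adjusted p = 0.00455) rose, with a list median of 0.31. Of 19 heat shock genes, Hspa1a rose (1.65, SE 0.24, limma adjusted p = 0.00987). Of 27 sterol and fatty acid synthesis genes, the oxysterol receptor gene Nr1h3 rose (1.56, SE 0.22, limma adjusted p = 0.00940), and the median was 0.06. Of 21 antimicrobial and acute-phase genes, the serum amyloid Saa2 rose (3.13, SE 0.44, limma adjusted p = 0.00926). Immediate-early genes held 3 risers among 35 tested and a median of 0.45. They were the orphan nuclear receptor Nr4a1 (2.23, SE 0.34, limma adjusted p = 0.0112), Maff (1.71, limma adjusted p = 0.0349, and 0.0567 with the replicate block) and Ier3 (1.43, SE 0.21, limma adjusted p = 0.0104), and none of the list was called without PBS replicate 2 of Ifnar2-/-. No cell cycle gene passed among 27 tested.

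**Figure D3:**
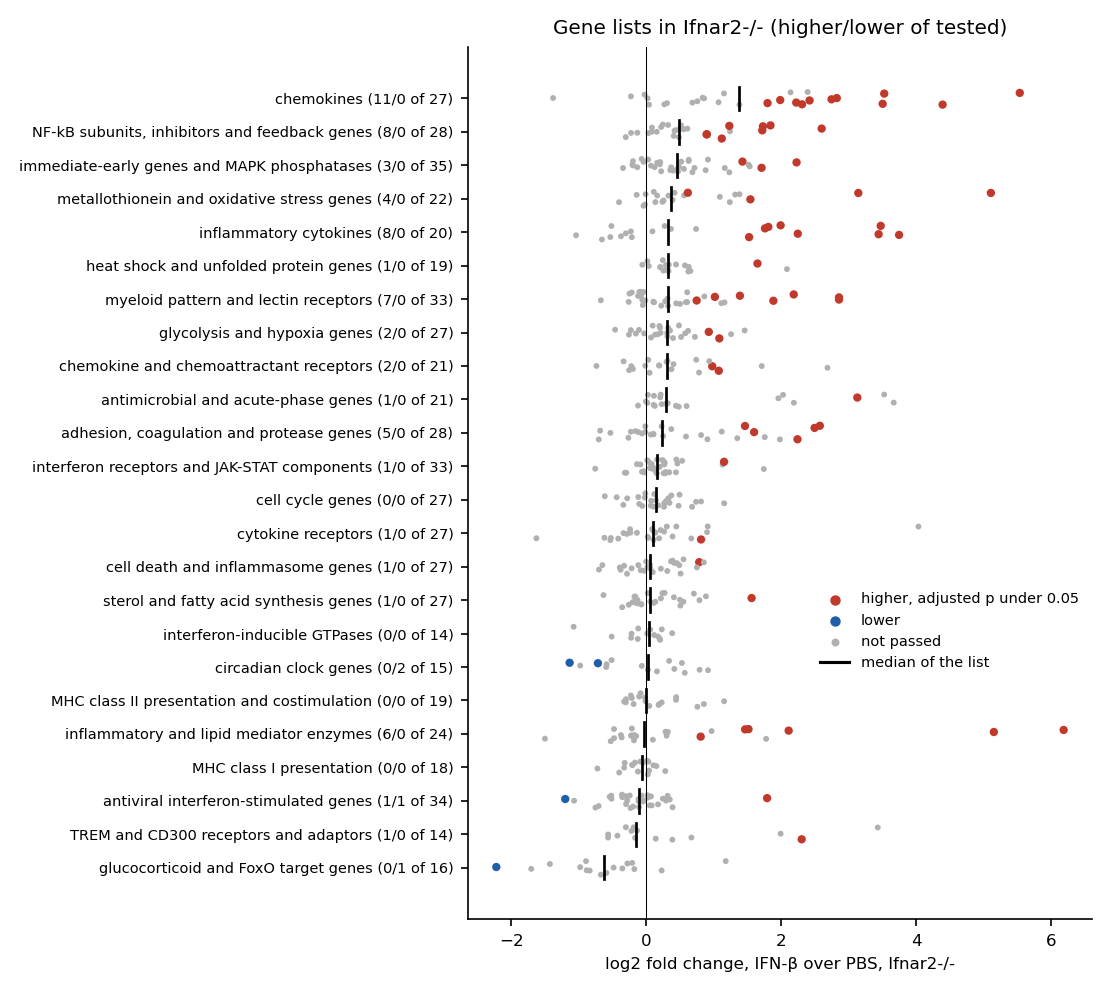
Log2 fold change (IFN-β over PBS, horizontal axis) of each tested member of 24 gene lists in Ifnar2-/- cells, 1 point per gene and 1 row per list, with the median as a bar. Red points rose, blue points fell and grey points did not pass, and the row labels give risers and fallers of the genes tested. The lists were drawn up with earlier results of these data known. The chemokine row lies farthest to the right at a median of 1.38, and the antiviral row is centred at -0.11.

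Fewer genes fell, and their changes were smaller. A probe with no gene name in the sources used here, A_52_P517668, read 3.00, 1.76 and 1.79 after PBS and -0.28, -0.86 and -0.35 after IFN-β. It fell by 2.68 on the log2 scale (SE 0.33, limma adjusted p = 0.00446), the largest fall among genes well above background on all 6 arrays. Fabp5, a fatty acid carrier of macrophages, cleared background on all PBS arrays (-4.13, -5.13 and -4.87) and on no IFN-β array. It was at least 1.89-fold lower (limma adjusted p = 0.00940), so its place among the falls is not known. The transcript of A_52_P517668 was not identified, and whether it is Fabp5 RNA was not tested, so these may not be separate genes. Prickle2, a planar polarity protein, read -4.35, -2.89 and -2.91 after PBS, cleared background on 1 of 3 IFN-β arrays, and fell by 2.59 on the log2 scale (limma adjusted p = 0.0112), or by 1.05 with normexp.

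Klf15, a transcription factor induced by glucocorticoids, read -2.44, -2.37 and -1.59 after PBS and -5.05, -4.33 and -3.68 after IFN-β, and its groups did not overlap. It fell by 2.22 on the log2 scale (SE 0.38, limma adjusted p = 0.0187). Fbxo32, the ubiquitin ligase atrogin-1 and a FoxO target, read -0.58, -0.71 and -0.92 after PBS and -2.06, -2.02 and -2.53 after IFN-β. It fell by 1.46 on the log2 scale (SE 0.18, limma adjusted p = 0.00422). Pik3ip1, an inhibitor of phosphatidylinositol 3-kinase, read 2.89, 2.83 and 2.82 after PBS and 1.43, 1.80 and 1.09 after IFN-β, a fall of 1.41 (limma adjusted p = 0.0176, and 0.0504 without IFN-β replicate 3). The list of glucocorticoid and FoxO target genes did not hold Fbxo32 or Pik3ip1. Of its 16 members tested, Klf15 was called as a fall, against 0.385% of all genes tested. In the list 14 changes were below 0, and the median was -0.63, against -0.05 over all genes tested. The call of Klf15 was lost without PBS replicate 2 or 3 of Ifnar2-/-.

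Other named genes that fell were the glycosidase Engase (-1.96), Tchh (-1.69), the small GTPase Arl11 (-1.60), the GTPase-activating protein gene Stard13 (-1.35) and Fam214a (-1.26). With the replicate block the limma adjusted p was 0.0605 for Engase, 0.0579 for Tchh and 0.0709 for Stard13. Among the 15 largest falls were also 4 transcripts with clone names. These were 2210416O15Rik (probe A_51_P183515, at least 2.18-fold lower), 2900052L18Rik (probe A_52_P40504, -2.22), 1810059H22Rik (probe A_51_P403578, -1.47) and 5930430L01Rik (probe A_52_P325918, -1.41). With the replicate block the limma adjusted p was 0.0536 for 2210416O15Rik and 0.0542 for 5930430L01Rik. Of 15 circadian clock genes 2 fell, against 0.385% of all genes tested. The list as a whole did not shift down, with a median of 0.03, 8 changes above 0 and 7 below. The repressor Nr1d1 fell by 1.13 on the log2 scale (limma adjusted p = 0.0166, and by 0.61 as the mean of its probes). Its relative Nr1d2 fell by 0.71 (limma adjusted p = 0.0419, and 0.0709 with the replicate block). Neither was called without PBS replicate 2, PBS replicate 3 or IFN-β replicate 3 of Ifnar2-/-.

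The antiviral interferon-stimulated genes did not move as a group without Ifnar2. Of 34 tested, 1 rose and 1 fell in Ifnar2-/- cells, with a median of -0.11, against 1.25% and 0.385% of all genes tested. In wild type all 34 rose, with a median of 3.68, against 18% of all genes tested. The difference between the responses passed for all 34. Wild-type cells changed 41.9% of all genes tested, and the difference passed for 19.3%. Isg15, a ubiquitin-like protein attached to other proteins after interferon, read -2.28, -2.51 and -2.82 after PBS and -2.08, -2.37 and -2.21 after IFN-β. The groups overlapped, and the difference of 0.32 did not pass (limma adjusted p = 0.278). Irf7, a transcription factor that amplifies interferon production, differed by 0.35 (SE 0.22, limma adjusted p = 0.394).

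The antiviral riser was Oasl1, a relative of the oligoadenylate synthetases. It read -6.58, -6.28 and -6.54 after PBS, with 1 of 3 arrays well above background, and -4.90, -4.84 and -4.28 after IFN-β. It rose by 1.79 (limma adjusted p = 0.00145), against 8.04 in wild type, and its adjusted p was 0.126 with normexp. The antiviral faller was Cmpk2, a mitochondrial nucleotide kinase, which read -2.30, -2.61 and -2.67 after PBS and -3.25, -3.63 and -4.30 after IFN-β. It fell by 1.20 on the log2 scale (SE 0.24, limma adjusted p = 0.0353) and rose by 8.62 in wild type. Its call held in 2 of the 12 fits that left out an array, and was lost with the replicate block (limma adjusted p = 0.0520), with quantile normalization and without IFN-β replicate 3 (0.0529).

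Other antiviral genes were near background in Ifnar2-/- cells, so they were not tested. Ifit1, which binds viral RNA, cleared background on all 6 wild-type arrays and on no Ifnar2-/- array, at -7.31, -5.74 and -6.86 after PBS and -7.04, -6.44 and -7.50 after IFN-β. Mx1, a GTPase that blocks influenza virus, cleared background on 1 of 3 PBS arrays and on 1 of 3 IFN-β arrays of Ifnar2-/-. For Oas3 and Oas1g it was on none. For these genes a response in Ifnar2-/- cells was not detectable at this signal, which does not show that there was none.

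The related lists also held few calls. Of all genes tested, 1.64% passed in Ifnar2-/- cells and 18% rose in wild type, so few calls in Ifnar2-/- do not set these lists apart. None of 14 interferon-inducible GTPases passed in Ifnar2-/- cells (median 0.04), while 14 of 14 rose in wild type and the difference passed for all of them. Of 18 genes of MHC class I presentation none passed (median -0.06), and 16 rose in wild type. None of 19 genes of MHC class II presentation passed (median -0.01). Of 27 cell death and inflammasome genes, the inflammatory caspase Casp4 rose (0.79, SE 0.13, limma adjusted p = 0.0165). Among 33 interferon receptor and JAK-STAT genes, the single riser was the feedback inhibitor Socs3 (1.15, SE 0.23, limma adjusted p = 0.0382, and 0.0953 without IFN-β replicate 3). Its call held in 2 of the 12 fits that left out an array. Ifnar1 itself read 1.04, 1.03 and 0.87 after PBS and 1.41, 1.04 and 1.33 after IFN-β, a difference of 0.28 that did not pass (limma adjusted p = 0.397). Of 22 genes that neighbour Ifnar2 on chromosome 16 none passed, and their median was 0.09.

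The response without Ifnar2 was then set against that of wild-type cells, on the same genes and in the same limma model. Of the 205 genes that rose without Ifnar2, 135 (65.9%) also rose in wild type, where 18% of all genes tested rose, 7 (3.41%) fell and 63 did not pass. The difference between the responses passed for 78 of them: the value without Ifnar2 was larger for 42, against 10.1% of all genes tested, and smaller for 36, against 9.24%. The 205 genes were chosen by their rise without Ifnar2, which is also a term of the difference. The split is therefore not independent of the choice and does not show a larger response as a group. Of the 63 genes that fell, 42 (66.7%) also fell in wild type, where 23.9% of all genes fell, and 6 rose. The comparisons used separate PBS groups, but all 12 arrays shared 1 estimate of the spread. Slide 3 held Ifnar2-/- arrays alone and slide 1 wild-type arrays alone, so the genotype is in part confounded with slide. With slide as a block the difference passed for 1882 genes in place of 3157.

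The Cxcr2 ligands were among the genes with the larger response without Ifnar2. Cxcl3 passed the test of the difference (limma adjusted p = 0.0105), but no Ifnar2-/- PBS array and no wild-type IFN-β array cleared background for it, so the size was not measured. Cxcl1 differed by 0.39 after IFN-β in wild type, and its difference of responses was 2.44 (limma adjusted p = 0.000419). Cxcl2 differed by 0.65 in wild type, and its difference of responses was 2.09. Il1b differed by 0.69 in wild type (difference of responses 3.05, limma adjusted p = 0.0373) and Prok2 by 0.44 (3.84, limma adjusted p = 0.0127). Ccl22 also passed (limma adjusted p = 0.0145), with a size not measured, since only the Ifnar2-/- IFN-β arrays cleared background. Treml4 differed by -0.24 in wild type (difference of responses 2.55, limma adjusted p = 0.000623) and Mmp14 by 0.45 (2.05, limma adjusted p = 0.00216). Phldb1, singled out after its values were seen, had the lowest adjusted p of all genes in Ifnar2-/- cells. It read -1.86, -1.88 and -1.88 after PBS and 0.27, 0.16 and 0.68 after IFN-β, a rise of 2.24 (limma adjusted p = 0.000145), against -0.15 in wild type (difference of responses 2.40, limma adjusted p = 1.57e-05).

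Other genes rose in both genotypes and less without Ifnar2. Acod1 rose by 9.17 in wild type, so its difference of responses was -2.98 (limma adjusted p = 0.0190). Il6 rose by 5.51 in wild type (difference of responses -2.04, limma adjusted p = 0.00390). Cxcl10 rose by 13.75 in wild type (difference -10.25), Ccl7 by 11.15 (-6.76) and Cxcl9 by 8.75 (-6.76). Ccl12 passed as well, but it was on no wild-type PBS array, so its wild-type size was not measured. For other genes the difference did not pass, which does not show that the responses were equal. These included Tnf (2.48 in wild type), Tgm2 (3.89), Bcl3 (2.16), Ikbke (1.90), Tnfaip2 (1.71) and Icam1 (1.33).

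There were 13 genes that passed in opposite directions in the genotypes, all singled out after their values were seen except Cmpk2 and Mmd. Mmd, a monocyte to macrophage differentiation marker, read -0.15, -0.05 and 0.10 after PBS and 0.74, 1.08 and 0.89 after IFN-β. It rose by 0.94 without Ifnar2 (0.44 as the mean of its probes) and fell by 2.29 in wild type, with a difference of responses of 3.23 (limma adjusted p = 1.73e-06). Cdc42ep2 (1.27 without Ifnar2 and -0.54 in wild type), Lrrc75a (0.93 and -0.53), Stk40 (0.84 and -0.46), Traf3 (0.61 and -0.40), Map2k3os (0.57 and -0.60) and the kinase gene Pim3 (0.56 and -0.43) were of the same kind. The opposite order held for Cmpk2, Mgst2 (-1.23 and 0.89), E130102H24Rik (-0.82 and 1.48), Klf11 (-0.74 and 0.82), Marchf1 (-0.69 and 0.57) and Casp2 (-0.57 and 0.88).

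Among the 100 largest changes without Ifnar2, the smallest fitted wild-type changes were those of the A_52_P517668 probe (-0.04), Grasp, Cxcl3, AK035485 and Fabp5, of which Cxcl3 and Fabp5 were near background. Grasp, a scaffold protein of postsynaptic receptors, rose by 1.54 (SE 0.26, limma adjusted p = 0.0187) and differed by 0.04 in wild type. The transcript AK035485 (probe A_52_P601829) rose by 1.45 (limma adjusted p = 0.0113) and differed by -0.09 in wild type. AK087699 (probe A_52_P226302) rose by 2.75 (limma adjusted p = 0.0199, and 0.0563 with normexp) and differed by -0.45 in wild type. Fabp5 cleared background on 2 of 3 arrays of each wild-type group, where it differed by 0.10, and its difference of responses passed with a size not measured.

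**Figure D4:**
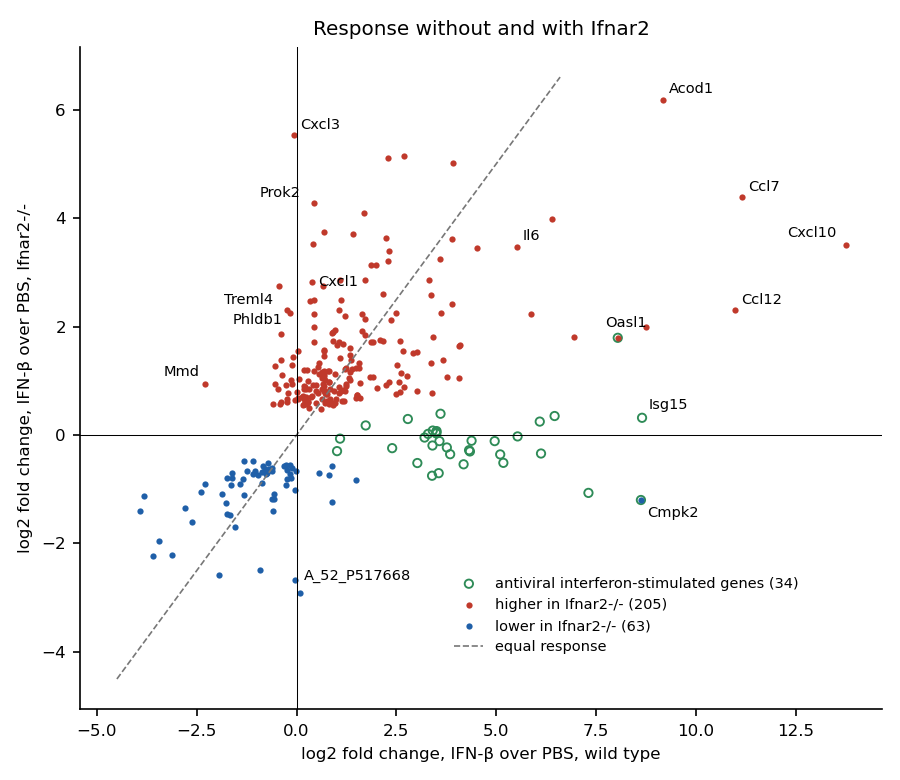
Log2 fold change (IFN-β over PBS) without Ifnar2 (vertical axis) against that in wild type (horizontal axis) for the 205 genes that rose (red) and the 63 that fell (blue) in Ifnar2-/- cells. Open green circles are the 34 tested antiviral genes and the dashed line is an equal response. The antiviral genes lie along the zero line of the vertical axis with wild-type changes up to 8.65, while Prok2 lies near 0 on the horizontal axis. Genes on no array of a group, such as Cxcl3 and Fabp5, are drawn at fitted values.

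Markers of the cell types that the samples could hold were read on the same arrays. The neutrophil list had the largest shift, with a median change of 1.99 over 22 tested genes, of which 20 were above 0. In 11 the groups did not overlap, all higher after IFN-β, against 12.2% of all genes tested. None passed (smallest limma adjusted p 0.0504). The number past the threshold was 3 without IFN-β replicate 1, 2 without IFN-β replicate 3, and 1 with quantile normalization or without scaling. Within it, S100a9, a calcium-binding protein abundant in neutrophils, read 1.92, 0.84 and 2.51 after PBS and 2.98, 5.72 and 7.14 after IFN-β, a difference of 3.53 that did not pass (limma adjusted p = 0.297). The lowest IFN-β array lay close to the highest PBS array, and the IFN-β arrays were spread over more than 4 log2 units. The neutrophil median was 1.42 without IFN-β replicate 3 and 0.64 within slide 2. On the wild-type arrays it ran from -0.72 to 2.65 after PBS and from 0.43 to 0.96 after IFN-β, so a wild-type PBS array also carried high neutrophil markers.

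Of all genes tested, 1.25% rose and 0.385% fell. Large peritoneal macrophage markers held 1 riser (Arg1) among 20 tested, with a median of -0.12. Their summed signal was 748 to 874 on the PBS arrays and 655 to 857 on the IFN-β arrays, lowest on IFN-β replicate 3. Among 15 monocyte markers Treml4 and Nr4a1 rose (median 0.11). Among 15 markers of dendritic cells and small macrophages, the short-chain fatty acid receptor Ffar2 (2.13, SE 0.36, limma adjusted p = 0.0185) and Itgax rose (median 0.07). No marker passed among 21 of B cells (median -0.17), 27 of T and NK cells (-0.18), 17 of mast cells (-0.11), 8 of eosinophils and basophils (0.34) and 8 of erythroid cells and platelets (0.55). Of 11 mesothelial and stromal markers, the keratin gene Krt19 fell by 0.66 on the log2 scale (limma adjusted p = 0.0430, and 0.0666 with the replicate block), and the median was -0.60. The call of Krt19 held in 1 of the 12 fits that left out an array and under 2 of 8 processing settings. The part of these shifts in the gene results was not tested.

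**Figure D5:**
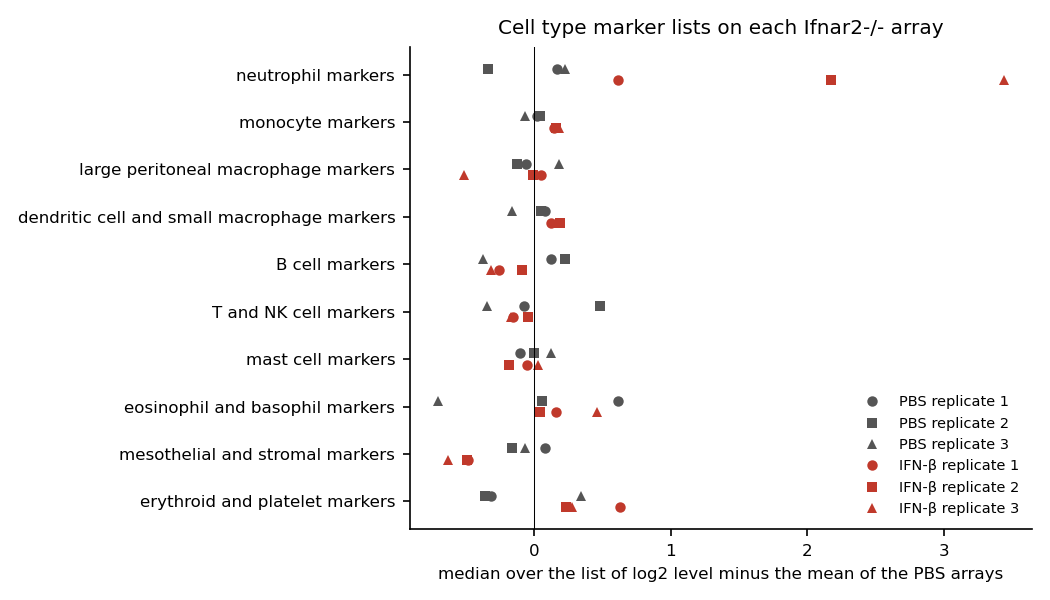
Median, over each of 10 marker lists, of the log2 level minus the mean of the PBS arrays (horizontal axis), for each of the 6 Ifnar2-/- arrays. PBS arrays are grey, IFN-β arrays are red and the marker shape gives the replicate. The neutrophil row reaches 2.17 and 3.44 on IFN-β replicates 2 and 3 and 0.61 on replicate 1.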

How the data were processed

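Total RNA of peritoneal exudate cells was hybridised to single-colour Agilent arrays, 1 per mouse. Signals were extracted with Agilent Feature Extraction 9.5.3.1, per the file headers, with a spatial background subtraction and a detrending step in each array. The deposited processed signal is a linear intensity with no scaling between arrays, and the deposited flags mark spots well above background, saturated or outlying. The series-wide values deposited by the authors were the same signals, with 0 of 45018 values different on any array. Outlier spots (84 to 167 per array) were left out, spots of a probe were averaged, and log2 of the signal minus the array's 75th percentile was taken.

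Probes well above background on all 3 arrays of either Ifnar2-/- group, with values on at least 2 arrays of each of the 4 groups, left 24662 probes for 16355 genes. A gene had the probe with the highest mean signal over all 12 arrays, wild type included. Of 5712 genes with several probes, 0 had probes that passed in opposite directions. Names came from RefSeq tables for GRCm38.p6: 22944 probes were named through their accession, 6664 through a current symbol and 3108 through a former symbol, while 8458 stayed as the files name them. One limma 3.58.1 fit in R 4.3.3 (with version 1.17.8 of data.table) held all 12 arrays with 4 group means (8 residual and 2.659 prior degrees of freedom). Tests were two-sided with Benjamini-Hochberg adjustment over the 16355 genes and a threshold of 0.05. The number of arrays limits the precision. The script was tested on simulated data.

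Where a group was not well above background on any array, a fold is given as a lower bound. The genes named were the 15 largest rises and falls, up to 5 called genes per list, Ifnar1, Ifnar2, Ifit1, Isg15, Mx1, Irf7 and Cxcl10, and, for the difference of responses, the 5 largest in each direction and the 5 of smallest wild-type change among the 100 largest changes. Others were named after their values were seen, as stated beside them. Some genes that the rule takes in are not reported here. The members, lists and rules were chosen with earlier results of these data known.

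The design text speaks of 3 independent experiments, so the replicate numbers may pair the samples. Deviations from the group means correlated at r = 0.547, 0.189 and 0.120 for same-numbered PBS and IFN-β arrays of Ifnar2-/-. Differently numbered arrays gave -0.444 to 0.253, highest for PBS replicate 2 with IFN-β replicate 3. Replicates 2 and 3 shared a slide, so these values do not settle the pairing. The main fit, with 268 calls, did not use it. The replicate block gave 207 calls over 12 arrays and 2 over the 6 Ifnar2-/- arrays. The alternatives were other scalings, normexp with an offset of 50, other filters, the mean of probes, slide or replicate number as a block, single slides, the 6 arrays alone, a trend in the variance, and each array left out.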

Additional observations from a re-analysis of the deposited data

Results flagged for a closer look

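Of 85 named genes tested, 36 had responses to IFN-β that differed between the genotypes by the test of the difference itself (limma, adjusted p under 0.05). The named genes were chosen mostly by their change without Ifnar2 or by the difference, so this count is not independent of the choice. The values below are the Ifnar2-/- response minus the wild-type response on the log2 scale. They came from groups of 3 arrays, in which single arrays far from the others were not tested, and genotype is in part confounded with slide. Where no array of a group cleared background, the value is a fitted one that measures no size. This holds for Cxcl3, Ccl22, Fabp5, Ccl12 and 5930430L01Rik.

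For 18 genes the value was positive. The chemokines and cytokines among them were Cxcl3 (5.60, fitted), Ccl22 (3.13, fitted), Il1b (3.05), Cxcl1 (2.44) and Tnfsf9 (1.57). Secreted, surface and receptor genes were Prok2 (3.84), Mmd (3.23), Treml4 (2.55), Gpr84 (2.30), Mmp14 (2.05) and Clec4e (0.97). Others were the nuclear receptor gene Nr4a1 (1.78), the scaffold gene Grasp (1.49), AK087699 (3.20) and AK035485 (1.53). The others fell in both genotypes and fell less without Ifnar2: Nr1d1 (2.68), 5930430L01Rik (2.52) and Stard13 (1.43).

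For 18 genes the value was negative. Interferon-stimulated genes gave Cmpk2 (-9.82), Isg15 (-8.33), Oasl1 (-6.25) and Irf7 (-6.11). Chemokines, their receptor and cytokines gave Cxcl10 (-10.25), Ccl12 (-8.66), Cxcl9 (-6.76), Ccl7 (-6.76), Ccrl2 (-2.70) and Il6 (-2.04). Enzymes, transporters and stress genes gave Acod1 (-2.98), Hspa1a (-2.42), Casp4 (-1.80), Slc2a6 (-1.68), Arg1 (-1.41) and Hk2 (-1.32). Fabp5 (-3.01, fitted) and the A_52_P517668 probe (-2.64) fell without Ifnar2 and did not pass in wild type.

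The 60 bases of the A_52_P517668 probe are printed so that its transcript can be looked up, since the files give it no gene, and whether it is Fabp5 RNA was not tested.
A_52_P517668: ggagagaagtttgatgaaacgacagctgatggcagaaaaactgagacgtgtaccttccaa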

How the results depend on the processing

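All 268 genes called kept their sign in every setting in which they were fitted. With an array left out, a single slide or the 6 arrays alone this was fixed in advance, since the groups of these genes did not overlap. Against 268 calls (205 higher and 63 lower), the count was 68 without a filter on background (61 and 7), 33 with the 6 Ifnar2-/- arrays alone (31 and 2), 51 within slide 3 (46 and 5) and 2 within slide 2 (1 and 1). With the replicate block it was 207 over 12 arrays, and 2 over the 6 Ifnar2-/- arrays alone (2 and 0). The replicate block over 12 arrays ended the calls of 15 named genes, given beside them, and of no other named gene. Leaving out 1 array gave 57 to 386 calls (49 to 240 higher, 8 to 146 lower). The lower calls were 26 with no scaling, 122 with normexp, 38 with probes kept in any of the 4 groups, 103 with a trend in the variance and 35 with slide as a block. The other settings gave 257 to 292 calls. The difference of responses passed for 1882 genes with slide as a block and for 2388 to 3877 with 1 array left out, against 3157. Ifnar2 turned to -0.0250 within slide 2. That value did not pass. Normexp took the rise of Cxcl3 to 2.35, of Flrt3 to 1.91, of Ccl22 to 0.84 and of Grasp to 0.56, and the falls of Klf15 to -1.35 and of Fabp5 to -0.65. The causes were not tested. Signal over background limits the genes near the floor of slide 3, which was higher than that of slide 2.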

Other observations

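Of the 205 genes that rose without Ifnar2, 140 were in none of the lists, and some of these are given here with values only, chosen after the values were seen. Amino acid transporters were among them. Slc7a5, a carrier of large neutral amino acids, read -2.71, -2.42 and -1.24 after PBS and -0.19, -0.36 and 0.87 after IFN-β, a rise of 2.23 (limma adjusted p = 0.0199). Slc7a2, a carrier of arginine, rose by 1.32 (limma adjusted p = 0.0349) and by 3.36 in wild type, and its difference of responses of -2.04 passed (limma adjusted p = 0.00286). Genes that act in ribosome assembly also rose: Urb2 by 1.18, Rrs1 by 1.16, Grwd1 by 0.99, Mphosph10 by 0.78, Wdr43 by 0.74 and Imp4 by 0.61. Rrs1 read 0.65, 0.77 and 0.98 after PBS and 1.75, 1.80 and 2.34 after IFN-β, so the groups did not overlap. No enrichment of such genes was tested.

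Regulators of the cell surface and the nucleus were also among the genes outside the lists. Marcksl1, a regulator of the actin cytoskeleton, read 1.12, 0.92 and 0.96 after PBS and 3.90, 3.45 and 4.24 after IFN-β, a rise of 2.86 (SE 0.23, limma adjusted p = 0.000284) beside 3.31 in wild type. Vdr, the vitamin D receptor, cleared background on 1 of 3 PBS arrays and rose by 3.25 (SE 0.66, limma adjusted p = 0.0384), with IFN-β arrays at -3.65, -1.93 and -0.17. The transcription factor gene Ets2 read 1.53, 1.54 and 1.60 after PBS and 2.82, 3.13 and 2.70 after IFN-β, a rise of 1.33 (limma adjusted p = 0.000633). Hbegf, a growth factor of the epidermal growth factor family, rose by 1.32 (limma adjusted p = 0.0112).

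Across the 205 risers, IFN-β replicate 3 was the highest IFN-β array for 136, replicate 2 for 41 and replicate 1 for 28. Across the 63 fallers, replicate 3 was the lowest for 45. Neutrophil markers were also highest on replicate 3, and their part in these counts was not tested.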
